A study of Mus musculus with 36 samples.

Results

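The microRNAs of the miR-23/27/24 clusters were followed in the mouse pre-B cell line B3 while the transcription factor Ikaros was brought into the nucleus. Members were taken by name, as every row of the miRNA table called mmu-miR-23a, 23b, 27a, 27b or 24, with any hairpin number and arm suffix, and 10 of the 469 miRNAs in the table met this rule. Of these, 4 come from the miR-23a cluster (miR-23a-5p, miR-23a-3p, miR-27a-5p and miR-24-2-5p) and 5 from the miR-23b cluster (mmu-miR-23b-5p, mmu-miR-23b-3p, mmu-miR-27b-5p, mmu-miR-27b-3p and miR-24-1-5p), while miR-24-3p is cut with the same sequence from both. All 10 had a value in every sample. mmu-miR-27a-3p was not analysed here.

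Small RNA was sequenced in 36 samples, with 3 for each of 2 lines at each of 6 times (0, 2, 6, 12, 18 and 24 h). The Ikaros line was B3 transduced with a mouse stem cell virus (MSCV) vector that encoded haemagglutinin-tagged wild type Ikaros fused to ERt2, an estrogen receptor domain that binds hormone, then GFP behind an internal ribosomal entry site (IRES). The control line carried a vector of the same build with ERt2 but no Ikaros, and both lines were pools of cells sorted on GFP. Both received the drug 4-hydroxy-tamoxifen (4-OHT) at 0.5 uM, which sends an ERt2 fusion to the nucleus; the labels give this dose to the 0 h samples too, whereas the methods describe them as untreated.

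A microRNA hairpin is cut into a 5p and a 3p arm, and the arm that is loaded into Argonaute, the guide, finds its targets mainly through bases 2 to 8, the seed. The miR-23a and miR-23b clusters are paralogs, each transcribed as one primary RNA that carries a miR-23, a miR-27 and a miR-24 hairpin, and their 3p arms are usually described as the guides. In B-lineage cells the miR-23a cluster is known as a brake on lymphoid development, miR-23 as a repressor of glutaminase that Myc holds down, and miR-24 as a regulator of cell cycle genes.

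The mature sequences are shown because the clusters can be told apart only through them. They are written 5′ to 3′ with the seed in capitals and come from RefSeq (GRCm38.p6), which held 9 of the 10 members; mmu-miR-23b-3p is named only. Those of the miR-23a cluster, with miR-24-3p of both clusters and miR-27a-3p for comparison, are:
mmu-miR-23a-5p: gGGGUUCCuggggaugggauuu
mmu-miR-23a-3p: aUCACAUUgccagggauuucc
mmu-miR-27a-5p: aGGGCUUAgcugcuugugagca
mmu-miR-27a-3p: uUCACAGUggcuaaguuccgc
mmu-miR-24-2-5p: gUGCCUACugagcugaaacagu
mmu-miR-24-3p: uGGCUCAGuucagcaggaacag
Those of the miR-23b cluster are:
mmu-miR-23b-5p: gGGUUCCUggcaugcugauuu
mmu-miR-27b-5p: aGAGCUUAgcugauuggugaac
mmu-miR-27b-3p: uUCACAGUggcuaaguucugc
mmu-miR-24-1-5p: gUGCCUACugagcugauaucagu

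miR-27b-3p has the seed of miR-27a-3p and differs from it by C19U alone, the miR-27a-3p base being given first and positions counted from 1 at the 5′ end. How the authors treated reads that match both is not given in the sources used here. The same is open for miR-23a-3p and miR-23b-3p, which are also paralogs that differ by few bases. The 5p arms of miR-27 are further apart, with 8 substitutions over 22 positions, of which G3A (miR-27a-5p base first) lies in the seed. miR-24-1-5p and miR-24-2-5p share their seed and their first 16 bases. Among the miRNAs in the table for which RefSeq held a sequence, none outside the members shared bases 2 to 8 with a member.

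In GRCm38.p6 the hairpins of the miR-23a cluster span chr8:84208518-84208921 (404 bases, forward strand), with Mir23a first, then Mir27a and Mir24-2. Apart from microRNA hairpins, no gene of the GENCODE annotation overlapped Mir23a or Mir27a, and Mir24-2 overlapped the first bases of the long non-coding RNA Gm26532. The hairpins of the miR-23b cluster span chr13:63300484-63301275 (792 bases, forward strand). They lie within the gene 2010111I01Rik on its own strand and opposite Fancc. Mir23b is intronic there, while Mir27b and Mir24-1 overlap exons of transcripts of 2010111I01Rik annotated as subject to nonsense-mediated decay or as non-coding.

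The values are normalised log2 values without counts, so the depth of a sample is unknown and the precision rests on the 3 replicates. The samples of a group correlated at 0.968 to 0.996 across miRNAs, and 0.36 was the median over all miRNAs of the within-group standard deviation (SD). Markers of haematopoietic cells were present in all 6 cases listed, with miR-181a-5p at rank 2 and miR-142-5p at rank 8 of the 469 by mean level, and miR-150-5p, a miRNA of mature lymphocytes, at rank 236. Of 12 markers of other cell types 4 were in the table, among them miR-9-5p, known from neural tissue, at rank 17. The log2 of their summed level at 24 h was 13.3 to 13.5 in the control line and 13.3 to 13.6 in the Ikaros line. It was set almost wholly by miR-9-5p (mean level 13.30) and says little about the others. Of these, miR-126a-3p was higher in the Ikaros line at 0 h (log2 difference 1.57, limma adjusted p = 3.48e-07) and at 24 h (0.67, adjusted p = 0.0031), and miR-223-3p, a myeloid miRNA of mean level 2.11, at 24 h (2.06, adjusted p = 0.000516). Their part in the results was not tested.

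The mean levels of the members ran from rank 35 to rank 364 of the 469, and no member was near the top of the table. miR-24-3p was the most abundant, with a mean log2 value of 11.62 over the 36 samples (rank 35), followed by miR-23a-3p at 11.26 (rank 42), miR-24-2-5p at 10.67 (rank 56) and miR-23b-3p at 9.76 (rank 74). A middle group held miR-27a-5p at 7.93 (rank 97), miR-27b-5p at 7.66 (rank 100) and miR-24-1-5p at 4.92 (rank 192). miR-27b-3p at 3.68 (rank 250), miR-23a-5p at 2.39 (rank 314) and miR-23b-5p at 1.67 (rank 364) were low. The lowest of all values in the table, 0.09, was that of miR-23b-5p in replicate 4 of the Ikaros line at 12 h. Levels were compared without division by length, since the sequences shown are all 21 to 23 nt long. Within groups the SD was 0.22 for miR-27a-5p, 0.46 for miR-23b-5p and 0.62 for miR-27b-3p, so neighbours in this order such as miR-27a-5p and miR-27b-5p, whose ranges over samples overlapped, are not separated by it. For miR-27b the 5p arm stood above the 3p arm in every sample, by 2.23 to 5.36 on the log2 scale, whereas for miR-23a, miR-23b and miR-24 the 3p arm was above. The level of miR-27b-3p depends on how reads that also match miR-27a-3p were treated, which is not given. The order of the miR-27b arms in the values may thus not be that in the cells.

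**Figure D1:**
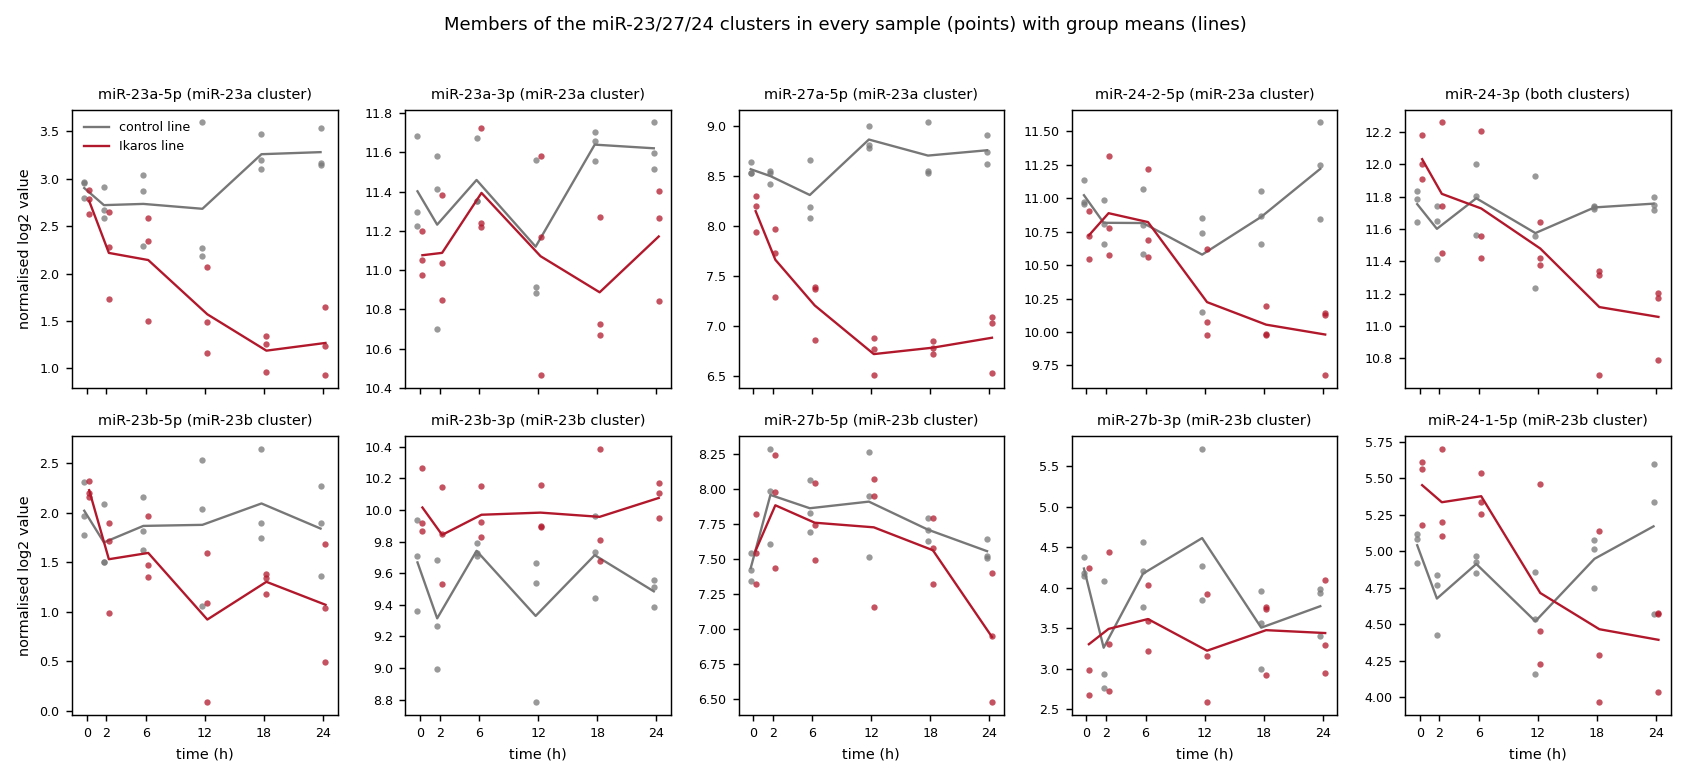
Normalised log2 value of each of the 10 members (vertical axis, scaled per panel) against time in hours, with the Ikaros line in red and the control line in grey; points are samples and lines join group means. miR-27a-5p of the Ikaros line lies below that of the control line at all 6 times, whereas miR-23b-3p lies above it in the means of all 6 times.

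The lines were first compared at each time, which asks how the members differ between cells with the Ikaros fusion and cells with ERt2 alone. A member is called where the limma test gave p under 0.05 after Benjamini-Hochberg adjustment over all 469. At 24 h, 7 of the 10 members were called, against 39.9% of all miRNAs. Of these, 6 were lower in the Ikaros line, against 22.0% of all miRNAs, and miR-23b-3p was higher. The balance over all miRNAs depended on the scaling, with 84 called higher and 103 lower on the values as deposited, and 111 higher and 65 lower once the median of each sample was subtracted, where 3 members were lower and 1 higher. The median difference was -0.74 over the members and -0.07 over all miRNAs. At 0 h no member was called (8.53% of all miRNAs were). At an unadjusted p under 0.05 there was 1 member at 0 h, miR-27a-5p, and 75 miRNAs in all.

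Between these times the number of members called rose from 1 at 2 h (11.3% of all miRNAs) and 1 at 6 h (15.1%), miR-27a-5p in both cases, to 4 at 12 h (21.7%) and 5 at 18 h (29.9%). At 12 h 3 of the 4 were lower (9.17% of all miRNAs), and at 18 h all 5 (16.8%). Over all miRNAs at 18 h, 61 were higher and 79 lower, which became 86 and 56 with the medians subtracted (3 members, all lower), and at 12 h quantile normalization turned 59 higher and 43 lower into 41 and 50 (3 members, all lower). At 2 h to 18 h the study's design places most control samples in another sequencing batch than the Ikaros samples, so that a difference by line and one by sequencing batch cannot be told apart there, beyond what the authors' correction removed, whereas the 0 h and 24 h libraries were mostly run together. Fewer cells with a miRNA and less of it per cell cannot be told apart in these bulk samples. The samples of the lines did not overlap for 5, 2, 3, 3, 6 and 7 members at the successive times from 0 h to 24 h. Over all miRNAs this held for 26.2%, 26.0%, 34.3%, 25.6%, 47.5% and 54.2%.

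miR-27a-5p, the partner arm of the miR-27a hairpin, lay below the control line in every same-numbered pair. It was called in all settings from 6 h on, while its call at 2 h was lost without replicate 1 (limma adjusted p = 0.070), without replicate 2 (0.079) and with only the groups compared (0.089). At 24 h its log2 values were 7.09, 7.03 and 6.54 for the Ikaros line, with 8.92, 8.62 and 8.74 for the control line, and at 12 h 6.88, 6.51 and 6.78 against 9.01, 8.82 and 8.78. The lowest control sample thus stood well above the highest Ikaros sample at both times. From 0 h to 24 h the successive line differences were -0.42 ± 0.19 (SE), -0.84, -1.10, -2.14, -1.92 and then -1.87 ± 0.19, the last a 3.66-fold lower level (limma adjusted p = 4.21e-09). The groups did not overlap at any of the 6 times, and the Ikaros sample was the lower in 18 of 18 same-numbered pairs. In the control line its group means stayed between 8.31 and 8.87.

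miR-23a-5p, the low partner arm of miR-23a, was called lower from 12 h on. At 24 h the Ikaros samples read 1.23, 1.64 and 0.93 and the control samples 3.53, 3.17 and 3.14, with no overlap. The difference was -2.01 ± 0.32 at 24 h, 4.04-fold (limma adjusted p = 1.02e-05), -2.07 at 18 h and -1.11 at 12 h, where the call was lost without replicate 1 or 2 (adjusted p = 0.068 and 0.093) and with only the groups compared. It was -0.14 at 0 h, where the samples overlapped and the test was not passed (adjusted p = 0.92). The Ikaros sample was lower in 17 of 18 same-numbered pairs.

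miR-24-2-5p, the abundant 5p arm of the miR-24-2 hairpin, was called lower at 18 h and 24 h. Its values at 24 h were 10.13, 10.14 and 9.68 in the Ikaros line against 11.25, 10.84 and 11.57 in the control line, and the groups did not overlap. The difference was -1.24 ± 0.22 at 24 h, 2.36-fold (limma adjusted p = 5.53e-05), and -0.81 at 18 h (adjusted p = 0.00589), the latter call being lost without replicate 1 or 2 (adjusted p = 0.097 and 0.082). At 0 h the difference was -0.30, without overlap but not called (limma adjusted p = 0.60). At 2 h and 6 h it was 0.07 and 0.01, with overlapping samples.

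miR-23a-3p, the guide arm and the most abundant member made from the miR-23a cluster alone, had a smaller difference at 24 h than the other 3 members of this cluster. It then read 11.41, 11.27 and 10.84 for the Ikaros line and 11.75, 11.51 and 11.60 in the control line. These samples did not overlap, but the difference of -0.45 (95% interval -0.95 to 0.05) did not pass the test (limma adjusted p = 0.14). It did so at 18 h, with -0.75 ± 0.24 (adjusted p = 0.0195), where the values were 10.72, 10.67 and 11.27 against 11.56, 11.66 and 11.70. That call was lost without replicate 1 or 2 (adjusted p = 0.065 and 0.26) and with the medians subtracted. At 0 h the samples did not overlap either, with a difference of -0.33 that was not called (limma adjusted p = 0.61).

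miR-24-3p, the guide arm that both clusters make, was lower at the end. Its values at 24 h were 11.20, 11.17 and 10.79 for the Ikaros line and 11.80, 11.72 and 11.75 in the control line, without overlap. The difference was -0.70 ± 0.21, 1.63-fold (limma adjusted p = 0.00763), after -0.62 at 18 h (adjusted p = 0.0223). Without replicate 4 the 24 h call was lost (-0.57, adjusted p = 0.075), as it was without the Ikaros sample of that number alone (adjusted p = 0.053), and without replicate 2 the 18 h call was (-0.40, adjusted p = 0.38). Both were lost with the medians subtracted. At 0 h the order was the opposite, since the Ikaros samples (12.18, 11.91 and 12.00) all lay above the control samples (11.83, 11.64 and 11.79), with a difference of 0.28 that was not called (adjusted p = 0.60).

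In the miR-23b cluster all differences at 24 h were negative but that of miR-23b-3p. miR-23b-3p, a guide arm with miR-23a-3p as its paralog, was the one member called higher at 24 h, with 9.95, 10.17 and 10.11 for the Ikaros line and 9.39, 9.51 and 9.56 in the control line. The groups did not overlap, and the difference was 0.59 ± 0.22, 1.51-fold (limma adjusted p = 0.0297). It was called also at 12 h (0.65, adjusted p = 0.0298), and its differences at the other times lay between 0.23 and 0.53. Without replicate 2 the 12 h difference was 0.29 (limma adjusted p = 0.52), and that call was lost also without replicate 1, under quantile normalization and with only the groups compared. The 24 h call was lost whichever replicate was left out of both lines, at differences of 0.56 to 0.61 (adjusted p = 0.11, 0.13 and 0.071 without replicates 1, 2 and 4), and without Ikaros replicate 2 or 4 or control replicate 1 or 2 alone. The Ikaros sample was lower in 1 of 18 same-numbered pairs. Since the difference of 0.35 at 0 h had the same sign, the excess at 24 h over that at 0 h was 0.24 (95% interval -0.38 to 0.87) and was not called.

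miR-27b-5p at 24 h read 6.48, 6.95 and 7.40 for the Ikaros line and 7.51, 7.52 and 7.64 in the control line, so that 1 Ikaros sample came close to the control samples without overlapping them. The difference was -0.61 ± 0.25, 1.53-fold (limma adjusted p = 0.0478). It was -0.41 without replicate 1 (adjusted p = 0.35) and -0.38 without Ikaros replicate 1 alone (adjusted p = 0.27), and the call was lost also without replicate 2, without Ikaros replicate 2 or any 1 control sample, with no trend, under both other scalings and with only the groups compared. miR-24-1-5p read 4.57, 4.57 and 4.04 against 5.34, 4.57 and 5.60, groups that overlap, with a difference of -0.78 ± 0.29, 1.72-fold (adjusted p = 0.0333). Without replicate 4 the difference was -0.38 (limma adjusted p = 0.29), and the call was lost also without replicate 1, without Ikaros replicate 4 or control replicate 1 or 4 alone, under both other scalings and with only the groups compared. It had stood higher in the Ikaros line at 0 h, 2 h and 6 h, by 0.41, 0.66 and 0.46, without overlap at these 3 times but without passing the test.

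miR-27b-3p and miR-23b-5p, the members with the widest spread, gave less. miR-27b-3p read 4.09, 3.29 and 2.95 at 24 h for the Ikaros line and 3.40, 3.98 and 3.94 in the control line, overlapping, with a difference of -0.33 (95% interval -1.30 to 0.64). It was called lower at 12 h (-1.39 ± 0.47, limma adjusted p = 0.0359), where the control values were 5.72, 4.28 and 3.86 and the Ikaros values 3.92, 2.59 and 3.16, so that these groups overlapped too. This call was lost whichever replicate was left out (limma adjusted p = 0.055, 0.22 and 0.056 without replicates 1, 2 and 4) and with only the groups compared. miR-23b-5p read 1.68, 1.04 and 0.49 against 1.90, 1.36 and 2.27 at 24 h, and its differences of -0.96, -0.79 and -0.77 at 12, 18 and 24 h did not pass (adjusted p = 0.055, 0.10 and 0.092). Without Ikaros replicate 1 the 24 h difference was -1.08 and passed (limma adjusted p = 0.033). miR-23b-5p was also called at 12 h without replicate 1 and at 18 h with only the groups compared.

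Several of these calls rested on the scaling or on 1 replicate. Subtracting the median of each sample moved the median difference of all miRNAs at 24 h from -0.07 to 0.17 and left 4 members called (miR-23a-5p, miR-23b-3p, miR-24-2-5p and miR-27a-5p), with all 10 directions kept; of these, miR-23b-3p was the one whose call was lost without a replicate. Without replicate 1, 2 or 4 of both lines, 4 or 5 members were called at 24 h (110 to 142 of all miRNAs). Each time miR-23a-5p, miR-24-2-5p and miR-27a-5p were among these members.

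**Figure D2:**
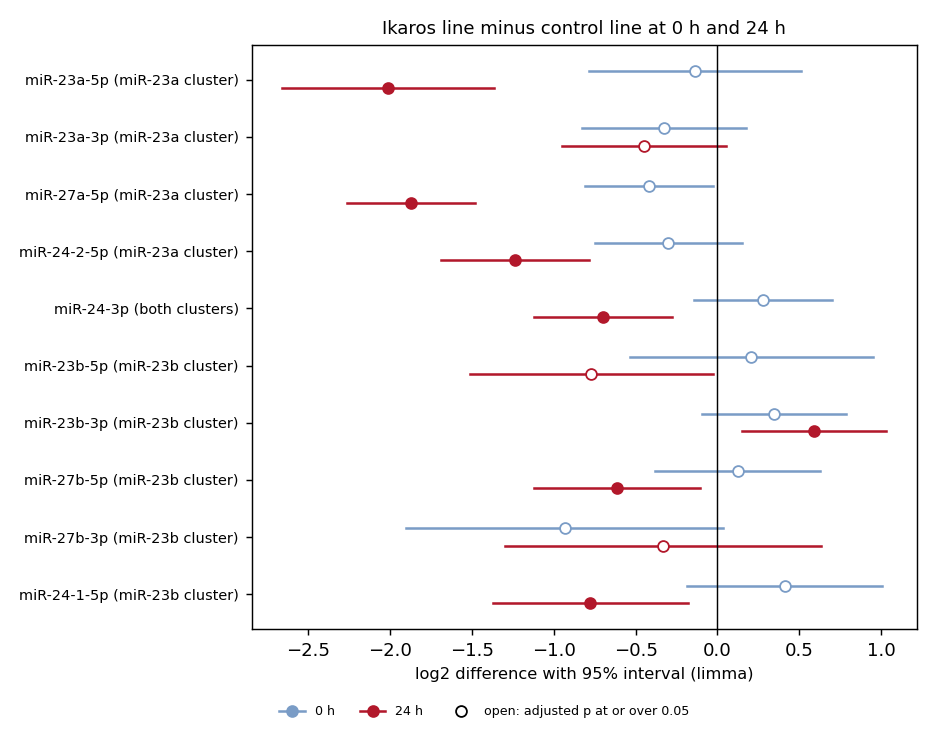
Log2 difference of the Ikaros line minus the control line (horizontal axis) for each member, at 0 h in blue and 24 h in red, with 95% intervals from limma; filled points were called and open points were not. At 24 h 9 of the 10 points lie left of 0 and miR-23b-3p lies right of it, while no point of 0 h is filled.

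Whether the lines came to differ between 0 h and 24 h was tested directly, by taking the line difference of 0 h from that of 24 h. This contrast called 4 of the 10 members lower, against 6.61% of all miRNAs, and none higher. Over all miRNAs 27 were called higher and 31 lower, and 29 and 16 with the medians subtracted. The change was -1.88 ± 0.45 for miR-23a-5p (limma adjusted p = 0.00472), -1.45 ± 0.27 for miR-27a-5p (adjusted p = 0.000353), -0.98 ± 0.29 for miR-24-3p (adjusted p = 0.0231) and -0.94 ± 0.31 for miR-24-2-5p (adjusted p = 0.0469). miR-24-1-5p, at -1.19 ± 0.41, just missed the threshold (adjusted p = 0.0553). The median was -0.96 over the members and -0.05 over all miRNAs. Subtracting the sample medians kept 2 of the calls (miR-23a-5p and miR-27a-5p). miR-27a-5p alone was called without replicate 1 (12 of all miRNAs) and without replicate 2 (23 of all). Both miR-23a-5p and miR-27a-5p were called without replicate 4 (31 of all). For miR-23a-3p the change was -0.12 (95% interval -0.83 to 0.58), the smallest in size of the 10, and it turned to 0.03 with the sample medians subtracted or without replicate 4.

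The change within a line was taken from 2 h to 24 h, since both times share their culture batches, while the 0 h samples come from other batches. In the Ikaros line 6 members were called (28.6% of all miRNAs), all of them lower at 24 h (18.8%). Over all miRNAs 46 were higher and 88 lower. With the medians subtracted these were 72 and 48, and 4 members were called, again all lower. The 6 called on the values as deposited were miR-23a-5p (-0.95), miR-24-1-5p (-0.94), miR-27b-5p (-0.94), miR-24-2-5p (-0.91), miR-27a-5p (-0.78) and miR-24-3p (-0.76), with limma adjusted p between 0.00253 and 0.0254. With the medians subtracted the calls of miR-23a-5p and miR-24-1-5p were lost (limma adjusted p = 0.072 and 0.053). The guide arms miR-23a-3p and miR-23b-3p changed by 0.08 (95% interval -0.42 to 0.58) and 0.23 (-0.21 to 0.68). The direction for miR-23a-3p turned to -0.15 without replicate 1. The count of members called depended on the model and the samples. A model of the 2 groups alone called only miR-24-2-5p (71 of all miRNAs). Without replicate 4 only miR-27b-5p was called (128 of all).

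In the control line no member was called by limma from 2 h to 24 h, and none of all miRNAs (0%). At an unadjusted p under 0.05 there were 0 members and 33 miRNAs. Here 9 of the 10 estimates were positive, miR-27b-5p (-0.40) being the exception, and the control samples of these times were mostly sequenced in separate batches. From 0 h to 24 h the control line again had no call among the members or among all miRNAs (0%), with 0 members and 16 miRNAs at an unadjusted p under 0.05. In the Ikaros line 6 members were called from 0 h to 24 h (30.7% of all miRNAs), all lower (16.4%; 67 miRNAs higher and 77 lower, or 86 and 59 with the medians subtracted, where the 6 remained called), with miR-23b-5p (-1.16, limma adjusted p = 0.0157) in the place of miR-27b-5p. Across these times culture batch and time cannot be told apart.

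**Figure D3:**
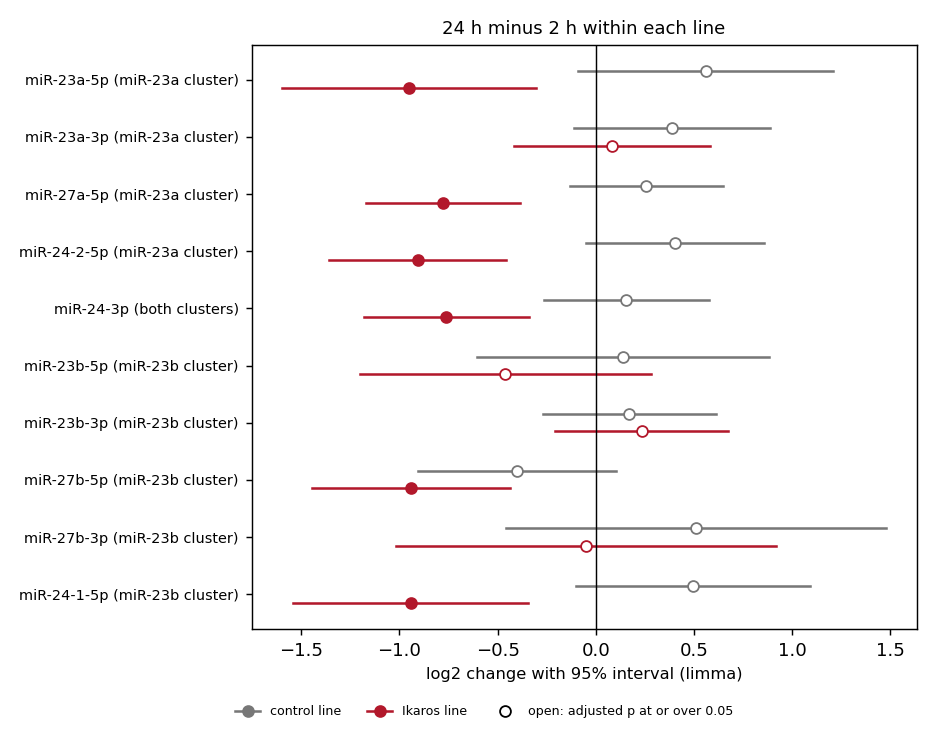
Log2 change from 2 h to 24 h (horizontal axis) of each member in the control line (grey) and in the Ikaros line (red), with 95% intervals from limma; filled points were called and open points were not. The 6 filled points all belong to the Ikaros line and lie left of 0, and no point of the control line is filled.

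Because both arms of a hairpin are cut from the same precursor, and paralogs share a sample's depth and scaling, differences between members were also taken within each sample. The Ikaros and control lines were compared over 12, 18 and 24 h by an exact permutation test, two-sided, that exchanged line labels within each time; its smallest possible p is 0.00025, and the 7 differences were adjusted together. With 24 h alone the smallest p is 0.10, so no single time could pass. The times pooled share their culture batches, while the test treats their samples as independent, so its p can be too small. A within-sample difference also removes only a shift common to all miRNAs. Line and sequencing batch therefore cannot be told apart at 12 h and 18 h for these differences either.

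miR-23b-3p stood below miR-23a-3p in both lines, but by less in the Ikaros line. The mean log2 difference was -1.04 with Ikaros and -1.95 without, a gap of 0.91 (exact permutation p = 0.0005, adjusted p = 0.00175). At 24 h it was -1.10 ± 0.36 (SD, n = 3) against -2.14 ± 0.20. The gap was there at 0 h as well, with means of -1.06 and -1.73, and the 2 groups did not overlap at either time. A shift common to all miRNAs of a sample cancels in this gap, which does not say which of the paralogs moved. The gap, like the level of each paralog, also depends on how reads that match both were treated, which is not given.

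The balance of arms differed between the lines over these times in 3 cases, with the limit on sequencing batch at 12 h and 18 h given above. For miR-23a the 5p arm minus the 3p arm was -9.70 for the Ikaros line against -8.38 for the control line, a gap of -1.32 (exact permutation p = 0.00025, the smallest possible, adjusted p = 0.00175). In the Ikaros line this difference went from -8.31 ± 0.04 (SD, n = 3) at 0 h to -9.90 ± 0.28 at 24 h. In the control line it was -8.50 ± 0.34 and -8.34 ± 0.12 at these times.

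For miR-23b the gap was -1.34 (exact permutation p = 0.00075, adjusted p = 0.00175), with means of -8.91 and -7.57. At 0 h the means were -7.79 and -7.65. Its 5p arm is near the bottom of the table. For miR-24-2-5p against miR-24-3p the gap was small, -0.33 (exact permutation p = 0.00975, adjusted p = 0.0137). At 0 h the means of -1.31 and -0.73 lay further apart than that, without overlap. The call was lost with same-numbered samples paired as a replicate block (adjusted p = 0.055) and, at -0.20, without replicate 1 (adjusted p = 0.27). miR-24-3p also comes from the other cluster, so this is not a ratio of arms of 1 hairpin alone.

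No difference in the balance of arms was detected for miR-27b (0.27, exact permutation p = 0.49, adjusted p = 0.52) or for miR-24-1-5p against miR-24-3p (0.12, exact permutation p = 0.52, adjusted p = 0.52). Between the miR-27b and miR-23b guide arms of the same cluster the mean difference was -6.62 with Ikaros and -5.54 without, a gap of -1.08 (exact permutation p = 0.0095, adjusted p = 0.0137). At 0 h the means were -6.71 and -5.43, with overlapping samples and no test. Without replicate 2 the gap was -0.79 (adjusted p = 0.19), and without replicate 4 it was -1.26 (adjusted p = 0.052). Both differences that use miR-27b-3p rest on the unknown treatment of reads shared with miR-27a-3p.

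**Figure D4:**
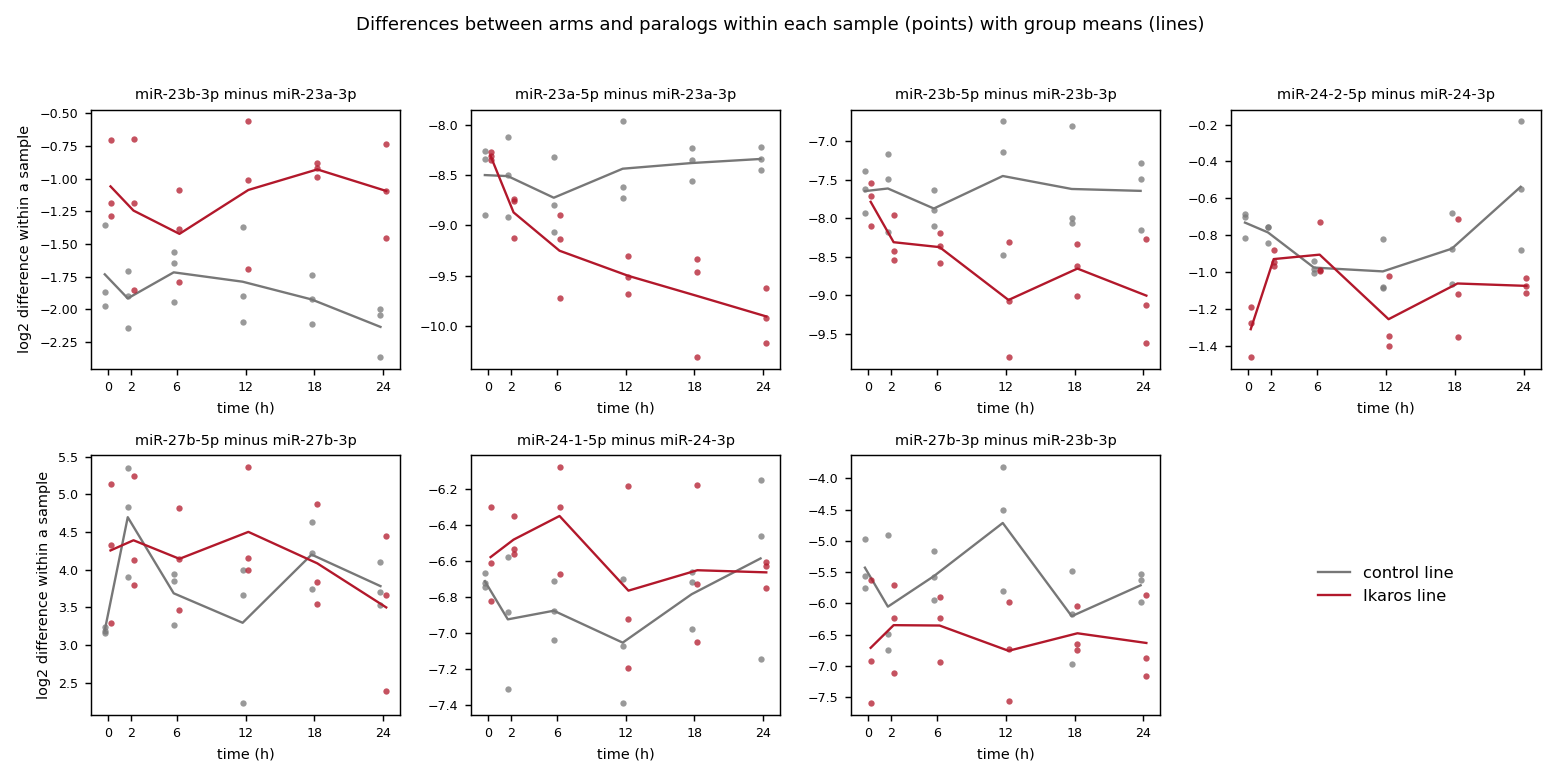
Log2 difference between 2 members of the same sample (vertical axis, scaled per panel) against time in hours, with the Ikaros line in red and the control line in grey; points are samples and lines join group means. In the Ikaros line the mean difference of the miR-23a arms is -8.31 at 0 h and -9.90 at 24 h. The mean of miR-23b-3p minus miR-23a-3p lies higher in the Ikaros line at all 6 times.

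How the members varied together was read within the 18 samples of each line, which share times and batches. For the 6 pairs among the 4 members of the miR-23a cluster Pearson r ran from 0.15 to 0.84 in the Ikaros line and from -0.05 to 0.69 in the control line. The order of the pairs was not the same in both lines, since miR-23a-5p and miR-27a-5p gave 0.81 with Ikaros and 0.19 without, whereas the arms of miR-23a gave 0.41 and 0.69. For the 10 pairs among the 5 members of the miR-23b cluster r ran from -0.12 to 0.32 and from -0.37 to 0.40. miR-24-1-5p gave 0.91 and 0.79 with its paralogous arm miR-24-2-5p. These values describe the samples and carry no test.

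Over all 36 samples, where the difference between the lines enters the correlation, the pattern most like that of miR-24-3p was miR-20a-5p (r = 0.82), followed outside the clusters by miR-301b-5p (0.78), with miR-24-2-5p at 0.81. miR-23a-3p was most like miR-15b-5p (0.87) and miR-98-3p (0.86), and miR-23b-3p most like miR-15a-5p (0.78) and miR-500-3p (0.77). The member most like miR-23b-3p was miR-24-1-5p, at r = 0.13 and place 207. For miR-27b-3p the highest values were 0.49 (miR-200a-5p) and 0.44 (miR-139-3p).

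The hairpins of miR-3074 lie opposite those of miR-24, and the mature miR-3074-5p and miR-24-3p overlap by 20 bases on opposite strands at both loci. miR-3074-1-3p, from the chromosome 13 locus, was lower in the Ikaros line at 24 h (-0.97 ± 0.21, limma adjusted p = 0.000393), while miR-3074-5p was not called (-0.56 ± 0.29, adjusted p = 0.12). Beyond 0 h the line difference of miR-3074-1-3p was not called (-0.73 ± 0.29, limma adjusted p = 0.11), nor was that of miR-3074-5p. miR-128-3p is related to miR-27 by its seed, with 6 bases shared at an offset of 1, and is shown for that:
mmu-miR-128-3p: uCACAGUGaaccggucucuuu
It was higher in the Ikaros line at 24 h (1.02 ± 0.24, limma adjusted p = 0.00125), whereas miR-128-1-5p was lower (-1.16 ± 0.26, adjusted p = 0.000654) and miR-128-2-5p was not called at 24 h. Beyond 0 h the line difference of miR-128-3p was 0.89 ± 0.34 and not called (limma adjusted p = 0.088). That of miR-128-1-5p was called lower (-1.12 ± 0.37, adjusted p = 0.0426). miR-128-2-5p had been higher in the Ikaros line at 0 h (1.62), 2 h (2.29), 6 h (1.16), 12 h (1.21) and 18 h (0.95), each called. Its line difference at 24 h beyond that at 0 h was called lower (-1.62 ± 0.35, limma adjusted p = 0.00253). Its control means were low, from 0.77 at 0 h to 1.35 at 6 h. At 12 h and at 18 h every control sample read 1.09 (SD 0). At such low levels the size of these differences is uncertain.

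Myc is known to hold down a set of miRNAs to which miR-23 also belongs, and the others of this set were read beside the clusters. Of 19 listed, 18 were in the table, and at 24 h limma called 8 higher, 1 lower and 9 not, with a median difference of 0.41 against -0.07 over all miRNAs. Over all 469, 84 were called higher and 103 lower, or 111 and 65 with the medians subtracted. The 3 with the largest differences were miR-29c-3p (1.71 ± 0.17), miR-22-3p (1.62 ± 0.13) and miR-26a-5p (1.20 ± 0.13), with adjusted p of 1.39e-08 or less. The one called lower, named after its value was seen, was miR-34a-5p (-0.90 ± 0.17, adjusted p = 0.000103). Beside this list, miR-23b-3p was higher at 24 h while miR-23a-3p had a negative difference that did not pass the test.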

How the data were processed

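The deposited values are normalised log2 values of 469 miRNAs in 36 samples. According to the methods and labels, the authors aligned TruSeq Small RNA reads to miRBase mouse miRNAs with Novoalign, counted them with multiBamCov (bedtools), filtered low CPM (NOISeq), removed GC bias (cqn), normalized (TMM), adjusted for sequencing batch (ComBat) and took the mean of technical replicates; versions are not given in the sources used here. These steps can move a difference between lines where line and sequencing batch coincide. Samples were grouped by the line and time of the labels, with replicates numbered 1, 2 and 4.

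The 10 members and all lists were chosen with earlier results of these data known. Tests across all miRNAs used limma 3.58.1 (lmFit and eBayes with trend, R 4.3.3) on the log2 values as deposited, with 12 group means over all 36 samples, 2-sided, with Benjamini-Hochberg adjustment over 469 miRNAs and a threshold of 0.05. Fold changes are 2 to the power of the log2 difference. Differences within samples used exact permutation tests (8000 arrangements; Python 3.11.15, numpy 2.4.6), adjusted over 7. Each script was first tested on simulated data. All members in the table were named, with the 2 miRNAs most correlated with each guide arm, miRNAs related by seed or position, and the 3 largest called differences of the Myc list.

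Same-numbered samples of both lines share a culture batch in the labels (4, 5 and 6 at 0 h, 1, 2 and 3 otherwise) and deviated together (r = 0.26 across miRNAs and samples, 0.06 at 18 h to 0.41 at 6 h). Alternatives were subtraction of sample medians, quantile normalization, only the groups compared, the replicate block, no trend, removal of the 25% of miRNAs with the lowest means, robust variance, and leaving out replicates. No column was left unmapped. Figures were drawn with matplotlib 3.10.9.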

Additional observations from a re-analysis of the deposited data

Results flagged for a closer look

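The change of the line difference between 0 h and 24 h passed the test of that change itself for 4 members, which is what marked them (limma, Benjamini-Hochberg adjustment over 469 miRNAs). It was -1.88 for miR-23a-5p, -1.45 for miR-27a-5p, -0.98 for miR-24-3p and -0.94 for miR-24-2-5p, on the log2 scale. At 0 h the difference was positive for miR-24-3p (0.28) and negative for the other 3. The 0 h samples come from other culture batches than the 24 h samples, in both lines alike.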

How the results depend on the processing

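With the sample medians subtracted, 4 members were called at 24 h and 2 for the change of the line difference from 0 h. A model of only the groups compared called 1 member for the 2 h to 24 h change of the Ikaros line (71 of all miRNAs). Leaving out replicates, a single 24 h library included, gave 4 to 7 members at 24 h (110 to 165 of all miRNAs). At 0 h it gave 0 to 1 (22 to 31 of all). Summed over 2 h to 18 h there were 4 to 11 calls of members (143 to 291 of all), and 11 (366) with all samples. The change from 0 h had 1 to 2 members called (12 to 31 of all). In the Ikaros line the 2 h to 24 h change had 1 to 3 (54 to 128 of all). The 0 h to 24 h change of that line had 3 to 6 (56 to 118 of all). Each such model has fewer samples to estimate the spread. For the 2 h to 24 h change without replicate 4, members called went from 6 to 1. Over all miRNAs the calls went from 134 to 128 there. What lies behind this was not tested. The member called at 0 h without replicate 1 was miR-27b-3p.

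With 24 h alone, where p cannot go below 0.10, the within-sample gaps were 1.04 for miR-23b-3p minus miR-23a-3p, and for the arms -1.57 (miR-23a), -0.54 (miR-24-2), -1.36 (miR-23b), -0.28 (miR-27b) and -0.078 (miR-24-1), and -0.92 for miR-27b-3p minus miR-23b-3p; those of miR-27b and miR-24-1 changed sign. Over all 6 times that of miR-24-1 was 0.24 and passed (exact permutation, adjusted p = 0.0318). With the replicate block the miR-24-2 gap of -0.33 did not pass (adjusted p = 0.055), and the block changed no other call among these gaps or the named line differences. Without one replicate the gaps ran from -0.45 to -0.20 for miR-24-2, from -0.062 to 0.29 for miR-24-1 and from -1.26 to -0.79 for miR-27b-3p minus miR-23b-3p.

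Of the single estimates, the sign of the change of the line difference of miR-23a-3p turned with medians subtracted (0.028) and without replicate 4 (0.031). For the 2 h to 24 h change of the Ikaros line, that of miR-23a-3p turned without replicate 1 (range without one replicate -0.15 to 0.395), and that of miR-27b-3p with medians subtracted (0.142), under quantile normalization (0.143) and without replicate 1 or 4 (range -0.36 to 0.10). None of these was called in any setting. Of 47 estimates for single members, 47 kept their call under the replicate block and under robust variance. The estimates themselves are the same in both of these settings, so their direction could not change. Direction and call were both kept by 28, 29 and 33 without replicates 1, 2 and 4. Outside the 47, the block added a call of miR-27b-5p for the 0 h to 24 h change of the Ikaros line. The causes were not tested. The table holds no counts, so that the low values of miR-23b-5p, miR-23a-5p and miR-27b-3p cannot be given a counting error.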
